A study of Mus musculus with 31 samples.

Results

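The arms of miR-142, mmu-miR-142-3p and mmu-miR-142-5p, were followed in lungs of female BALB/c mice, an inbred strain, exposed to cigarette smoke for 4, 6, 8 or 12 weeks, against lungs of mice kept in room air for the same durations. They were picked out by name in the scanner files of 1-colour Agilent mouse miRNA arrays and make up 2 of the 650 entries and 4 of the 1857 probes on the array. Total RNA was labelled with the dye Cy3 and hybridised to 31 arrays. There were 4 arrays in each of the 8 groups, except 3 in the 12 weeks smoke group, which gave 15 smoke and 16 control arrays. No genotype, allele or further treatment is named in the labels, and they give neither the age of the mice nor the dose of smoke. They also do not say whether the arrays of a group came from separate animals, so p-values measure only the spread between the arrays at hand, part of which may be technical.

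miR-142 is made in blood-forming cells and in nearly all white blood cells descended from them, and is close to silent in most other cell types. Its precursor is cut so that both strands are kept and loaded into the silencing complex, which makes 3p and 5p separate regulators with different seeds from a single transcript. In lung it comes from resident macrophages, lymphocytes and other leukocytes, in the tissue and in the blood left in its vessels. In whole lung, fewer leukocytes and less miR-142 per leukocyte cannot be told apart.

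RefSeq places the precursor gene Mir142 on the plus strand of GRCm38.p6 at chr11:87756864-87756927 and lists its arms as mmu-miR-142a-3p (chr11:87756903-87756925) and mmu-miR-142a-5p (chr11:87756867-87756887). They were matched to the array's entries through the older names of the gene. The hairpin is shown with the arms in capitals, 5p to the left and 3p to the right of the loop, because the arms are compared below. The mature strands follow with the seed, bases 2 to 8, in capitals.
Mir142 hairpin: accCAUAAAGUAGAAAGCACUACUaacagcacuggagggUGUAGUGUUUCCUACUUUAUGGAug
miR-142-3p: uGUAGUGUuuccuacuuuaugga
miR-142-5p: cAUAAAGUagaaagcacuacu
The 3p strand has 34.8% G and C and the 5p strand 33.3%, against a median of 45.5% over the 222 tested miRNAs with a RefSeq sequence. Only 14 of those 222 were lower in G and C than 3p, and 11 were lower than 5p. Of the 497 entries with a RefSeq sequence, no other carried either seed.

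Each arm was read by 2 probes of 10 spots each. No spot of the 4 probes was saturated and every spot was well above background on all 31 arrays. The processed signal of the brighter 3p probe lay between 1255 and 25468 units and that of the brighter 5p probe between 132 and 1827 units. The probes of an arm gave nearly the same picture, with a correlation over the 31 arrays of 0.998 for 3p and 0.997 for 5p. Values below are the brighter probe's signal divided by the array's 75th percentile, on the log2 scale, on which 0 is that percentile. Different probes bind with different strength, so only changes, not levels, are set against each other between the arms.

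Before the comparisons, some arrays stood apart over all miRNAs. The leading principal component of the 205 other miRNAs detected on every array held 47.0% of their variance. The sign of a component is arbitrary and was set here so that 3p correlated negatively with its score. Its score was highest on smoke arrays 2 and 3 of 4 weeks, at 8.72 and 4.60, and next highest on control arrays 4 and 3 of 6 weeks, at 4.04 and 3.72, against a median of -0.38 over all 31 arrays. The endothelial miR-126-3p lay between 4.61 and 4.92 log2 on smoke arrays and between 4.68 and 5.13 on control arrays. Its deviations from group means correlated with the component score at 0.83. Some arrays also held miRNAs of other tissues. The muscle miR-1a-3p reached 2.35 log2 on smoke arrays and 2.28 on control arrays. The liver miR-122-5p reached 1.57 log2 on smoke arrays and lay at the floor on control arrays. On every slide, smoke arrays lay in 1 line of positions and control arrays in the other, with the duration as the column, so array position cannot be told apart from smoke or duration.

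After 4 weeks, miR-142-3p stood at 2.40, 0.06, 1.07 and 2.48 log2 on the smoke arrays, against 2.82, 2.71, 2.79 and 2.83 on the control arrays. miR-142-5p stood at -1.65, -3.19, -2.71 and -1.53 on the smoke arrays, against -1.18, -1.25, -1.16 and -1.23 on the control arrays. All 4 smoke arrays lay below all 4 control arrays in both arms, and smoke arrays 2 and 3 lay far below the other 2. Such a separation held for 6.25% of the 272 miRNAs tested at this duration.

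After 6 weeks, miR-142-3p stood at 1.76, 1.81, 1.87 and 1.88 log2 with smoke, against 2.55, 2.77, 1.96 and 2.04 in controls. miR-142-5p stood at -2.31, -1.82, -2.23 and -2.22 with smoke, against -1.36, -1.03, -1.80 and -1.66 in controls. The smoke arrays again lay below all control arrays in both arms, a pattern of 3.31% of tested miRNAs. The gap was narrow, 0.08 log2 for 3p and 0.02 log2 for 5p, and control arrays 3 and 4 were the ones close to the smoke values.

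After 8 weeks, miR-142-3p stood at 1.38, 2.68, 2.44 and 2.15 log2 with smoke, against 2.36, 2.43, 2.44 and 2.42 in controls. miR-142-5p stood at -2.50, -1.41, -1.66 and -1.90 with smoke, against -1.72, -1.66, -1.62 and -1.79 in controls. Here the groups overlapped in both arms: smoke array 1 was the lowest and smoke array 2 the highest of all 8. At 8 weeks 12.1% of tested miRNAs had all smoke arrays below all control arrays, and neither arm was among them.

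After 12 weeks, miR-142-3p stood at 2.16, 2.27 and 1.80 log2 with smoke, against 2.80, 2.40, 2.74 and 2.58 in controls. miR-142-5p stood at -1.97, -2.01 and -2.18 with smoke, against -1.36, -1.50, -1.27 and -1.40 in controls. All 3 smoke arrays lay below all 4 control arrays in both arms, by 0.13 log2 for 3p and 0.48 log2 for 5p, at a duration where 25.4% of tested miRNAs did so.

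**Figure D1:**
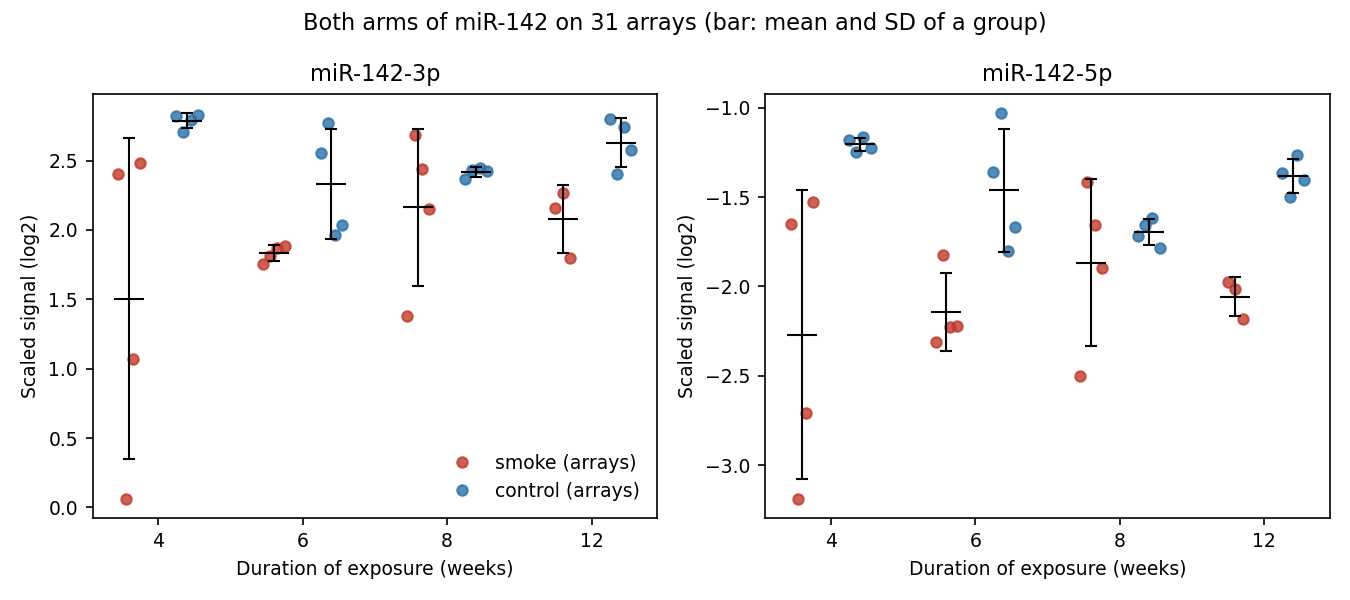
Scaled signal (log2) of miR-142-3p (left panel) and miR-142-5p (right panel) on each array, by weeks of exposure, with smoke arrays left of control arrays; black bars are the group mean and SD (3 or 4 arrays). Smoke arrays lie below control arrays at 4, 6 and 12 weeks and overlap them at 8 weeks, and the smoke groups of 4 and 8 weeks are the most spread.

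Ordered by mean, all 4 smoke groups stood below all 4 control groups in both arms, which are not separate examples. The share of tested miRNAs with such an order was not counted. For 3p the smoke means lay between 1.50 and 2.16 log2 and the control means between 2.33 and 2.79. For 5p the order was alike, with smoke means between -2.27 and -1.87 and control means between -1.69 and -1.20. Most neighbours in this order differed by less than the larger SD of the pair. The exceptions for 3p were controls of 12 over 8 weeks (0.21 log2) and smoke of 12 over 6 weeks (0.25), and for 5p controls of 4 over 12 weeks (0.18). The pooled SD within groups was 0.68 log2 among smoke arrays and 0.22 among control arrays for 3p. For 5p it was 0.50 among smoke arrays and 0.18 among control arrays. Without smoke arrays 2 and 3 of 4 weeks the SD among smoke arrays was 0.35 for 3p and 0.30 for 5p.

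Whether smoke changed miR-142 was tested with limma over all 272 tested miRNAs, with 1 mean per group and Benjamini-Hochberg adjustment. Averaged over the durations, both arms fell in smoke-exposed lungs, to 63.9% of control for 3p (-0.65 ± 0.17 log2, SE, 15 smoke and 16 control arrays, adjusted p 0.00515) and to 63.8% for 5p (-0.65 ± 0.13, adjusted p 0.000344). Both members thus passed in a comparison where 12.1% of tested miRNAs were called lower, and their falls ranked 4 and 3 of 272 in size. The arms come from 1 transcript and correlate at 0.95 over the arrays, so they are not separate examples. After 4 weeks 3p fell by 1.28 ± 0.34 log2 (41.1% of control, 4 arrays a group, limma adjusted p 0.00787) and 5p by 1.06 ± 0.25 (47.8%, adjusted p 0.00444), where 11.4% of tested miRNAs were called lower. The median difference over all 272 miRNAs at 4 weeks was 0.17 log2, and relative to it the arms lay at -1.46 and -1.24. With normexp background correction the differences were -1.12 and -1.11 but that median was -0.75, and relative to it the arms lay at -0.37 and -0.36.

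The 4 weeks result rested on few arrays. Without smoke array 2, the 3p difference was -0.80 log2 (limma adjusted p 0.0473). Without smoke arrays 2 and 3, which stood apart over all miRNAs, it was -0.35 for 3p (adjusted p 0.466) and -0.38 for 5p (adjusted p 0.325), so neither arm passed. The averaged falls were then -0.41 log2 for 3p (adjusted p 0.0032) and -0.48 for 5p (adjusted p 0.000215). Fitted on the 8 arrays of 4 weeks alone, the 4 weeks differences had adjusted p-values of 0.153 for 3p and 0.126 for 5p.

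At the other durations no arm passed. The 6 weeks difference was -0.50 ± 0.34 log2 for 3p (limma adjusted p 0.466) and -0.68 ± 0.25 for 5p (0.101), with 0.368% of tested miRNAs called lower. At 8 weeks the differences were -0.25 ± 0.34 for 3p (0.75) and -0.17 ± 0.25 for 5p (0.776), with 6.99% called lower. Left unscaled, the 8 weeks values were -1.07 for 3p and -0.99 for 5p, where the median of all miRNAs lay at -0.86. The 12 weeks values were then -0.23 and -0.35. Relative to the median, the 8 weeks values were -0.21 and -0.14 unscaled, against -0.20 and -0.12 in the main setting. At 12 weeks the differences were -0.55 ± 0.37 for 3p (0.345) and -0.67 ± 0.27 for 5p (0.115), with 4.04% called lower. These fits share 1 estimate of spread, to which the scattered 4 weeks smoke arrays add. Without smoke arrays 2 and 3 of 4 weeks, 5p passed at 6 weeks (adjusted p 0.00669) and at 12 weeks (adjusted p 0.0116), while 3p did not (0.0943 and 0.0678).

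**Figure D2:**
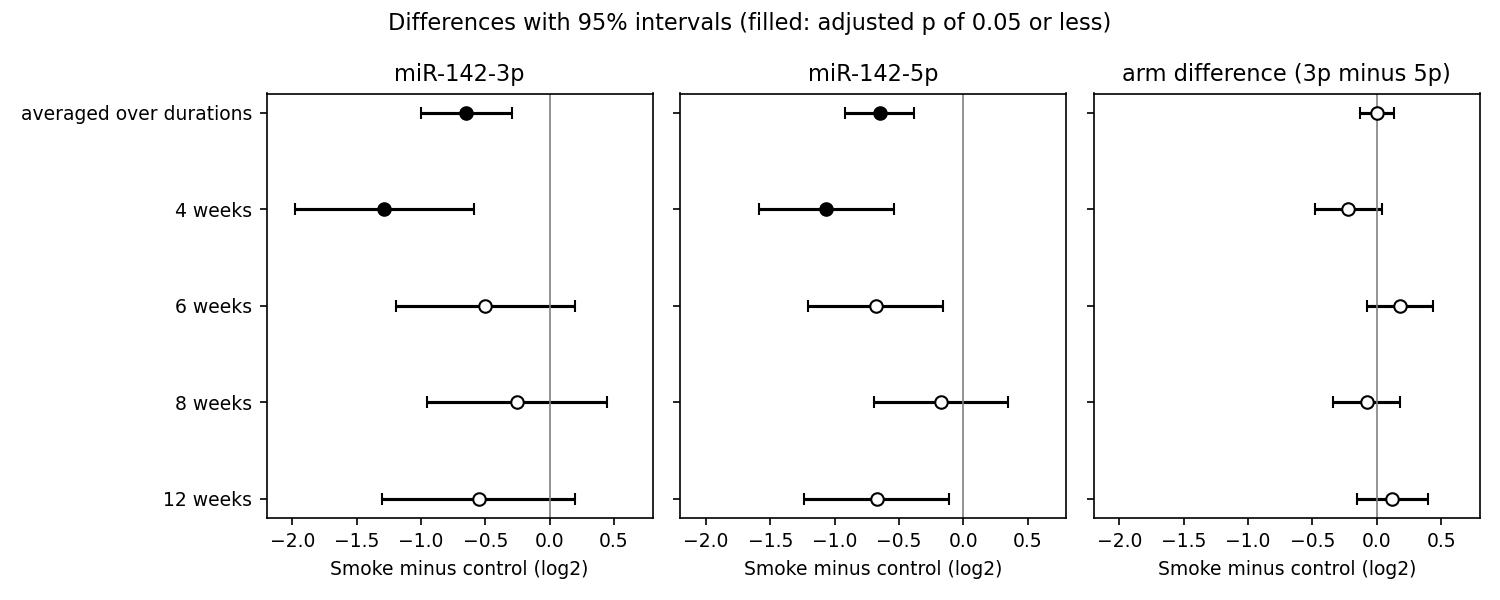
Smoke minus control (log2) with 95% intervals from limma for miR-142-3p, miR-142-5p and the difference between the arms, averaged over the durations and at each duration; filled points passed at an adjusted p of 0.05 or less. The arms passed averaged (-0.65 for both) and at 4 weeks, and no interval of the arm difference leaves out 0.

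Whether the smoke difference itself changed with duration was asked by a moderated F test. It gave an adjusted p of 0.279 for 3p and 0.222 for 5p, where 6.62% of tested miRNAs passed, so a larger fall at 4 weeks than later was not shown. Among control arrays alone, the durations did not separate either arm (adjusted p 0.625 for 3p and 0.437 for 5p, 6.99% of miRNAs passing). Among smoke arrays alone the adjusted p was 0.487 for 3p and 0.622 for 5p, with 3.31% passing.

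Smoke and control arrays of the same duration shared a slide in 15 cases. The 3p strand was lower on the smoke array in 14 of these 15 pairs, with pair differences of -2.64 to 0.25 log2 and a median of -0.42. The 5p strand was lower in 14 of 15, with differences of -1.94 to 0.24 and a median of -0.55. The exception in both arms was slide 2 at 8 weeks. Within slides 1, 2, 3 and 4 the mean pair difference was -0.61, -0.96, -0.65 and -0.26 log2 for 3p, and -0.67, -0.81, -0.70 and -0.32 for 5p, with 4 pairs on the first 3 slides and 3 on slide 4.

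The arms were then compared array by array, as 3p minus 5p in log2. After 4 weeks this arm difference was 4.05, 3.25, 3.78 and 4.01 on smoke arrays and 4.01, 3.96, 3.96 and 4.05 on control arrays. After 6 weeks it was 4.07, 3.64, 4.10 and 4.10 on smoke arrays and 3.91, 3.80, 3.76 and 3.70 on control arrays. Smoke array 2 was the low one of its group at both durations. After 8 weeks it was 3.88, 4.10, 4.10 and 4.05 with smoke and 4.08, 4.09, 4.06 and 4.21 in controls. After 12 weeks it was 4.13, 4.28 and 3.98 with smoke and 4.16, 3.90, 4.01 and 3.98 in controls. Smoke and control arrays overlapped at every duration.

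The shift with smoke was of the same size in both arms within the error. Averaged over durations the arm difference changed by 0.0011 ± 0.064 log2 (95% interval -0.13 to 0.13, limma over 48 precursors with both arms tested, adjusted p 0.987), and the exact two-sided permutation test within durations gave 0.988. Of those precursors 25% were called in this comparison, in either direction. The 4 weeks change was -0.22 (interval -0.48 to 0.04, limma adjusted p 0.162, exact permutation p 0.371), with 20.8% of precursors called. At 6 weeks it was 0.18 (-0.08 to 0.44, limma adjusted p 0.477), with 2.08% called. At 8 weeks it was -0.08 (-0.34 to 0.18, 0.805), with 8.33% called, and at 12 weeks 0.12 (-0.16 to 0.40, 0.594), with 4.17% called. Exact permutation gave 0.171, 0.371 and 0.286 for 6, 8 and 12 weeks, and the smallest p it allows at 1 duration is 0.0286. The intervals of single durations still allow unequal changes of the arms of up to 0.48 log2.

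F tests of the arm difference passed neither for a smoke difference between durations (limma adjusted p 0.249, with 4.17% of precursors called) nor among the durations of control arrays (0.274) or of smoke arrays (0.346). For these last comparisons 0% of the 48 precursors were called, and 10 and 6 of them had an unadjusted p under 0.05 in limma.

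Over the 31 arrays the arms rose and fell together. Their correlation was 0.95 (Spearman 0.95, permutation p 1e-05 for both, the smallest that 100000 resamples can give, adjusted p at most 2e-05 over 12 relations). It was 0.93 without smoke arrays 2 and 3 of 4 weeks and between 0.89 and 0.98 within the 4 slides. With each group's mean taken out it was 0.96 (Spearman 0.86, the same smallest permutation p), and 0.93 without smoke arrays 2 and 4 of 4 weeks, the farthest in 5p. Among 48 precursors this within-group correlation ranked 4, against a median of 0.19 and a range of -0.90 to 0.98. The correlations are a description: arms of a precursor share array, label and scaling factor. Permutations for these and the correlations below shuffled values over all 31 arrays, without regard to group or slide.

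**Figure D3:**
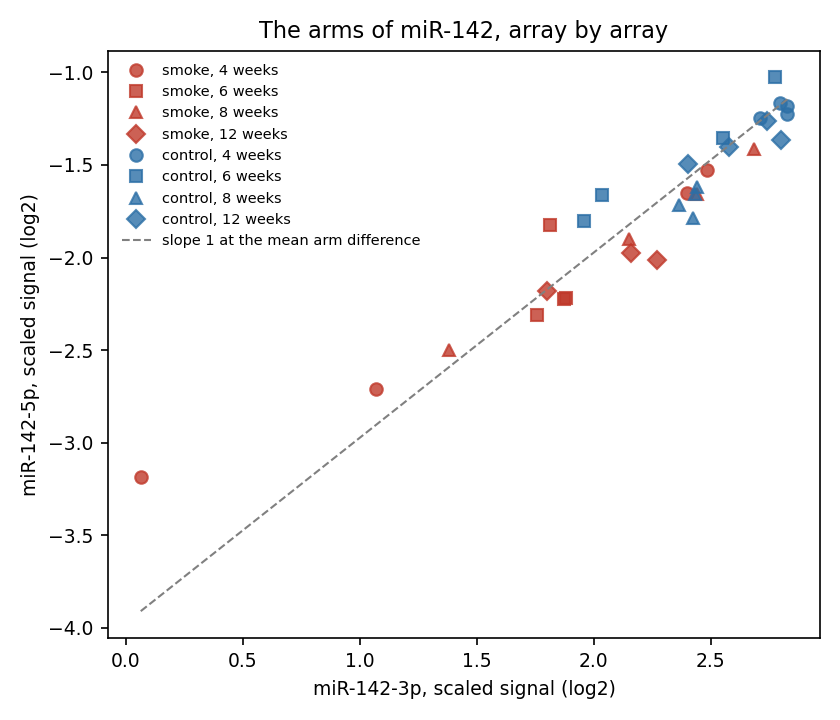
miR-142-5p against miR-142-3p, scaled signal (log2), 1 point per array; colour gives smoke or control, shape the duration, and the dashed line a slope of 1 at the mean arm difference (3.97 log2). The 31 arrays follow 1 line (correlation 0.95), with smoke arrays 2 and 3 of 4 weeks at its low end and above the dashed line.

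The level of both arms also moved with the array component named above, whose sign was set to make its correlation with 3p negative. Its score correlated with 3p at -0.81 (Spearman -0.71, permutation p 1e-05 and 4e-05) and with 5p at -0.72 (Spearman -0.63, permutation p 1e-05 and 2e-04), and at -0.65 and -0.51 without smoke arrays 2 and 3 of 4 weeks. Taken as deviations from group means it was -0.90 for 3p and -0.87 for 5p, and within slides between -0.82 and -0.97 for 3p and between -0.75 and -0.95 for 5p. Arrays of the same group thus differed in miR-142 along the same direction that separates arrays over all miRNAs. The arm difference correlated with the score at -0.66 over all arrays (Spearman -0.43, permutation p 1e-04 and 0.01, adjusted over the 12 relations 1e-04 and 0.01) and -0.39 without the same 2 arrays. As deviations from group means it was -0.70 (Spearman -0.73, permutation p 1e-05 and 4e-05), and within slides it lay between -0.50 and -0.89. With smoke arrays 2 and 4 of 4 weeks left out it was -0.53.

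With the score as a covariate in limma, the averaged fall was -0.47 log2 for 3p (adjusted p 1.62e-05) and -0.52 for 5p (adjusted p 4.28e-07). The 4 weeks differences were then -0.37 (adjusted p 0.149) and -0.40 (adjusted p 0.0681), so neither passed, whereas both arms passed at 6 weeks (-0.49 and -0.68, adjusted p 0.0145 and 0.000231) and at 12 weeks (-0.79 and -0.84, adjusted p 0.000507 and 3.42e-05). At 8 weeks neither did (-0.23 and -0.16). The score averages over miRNAs that smoke may change, and its part in the result was not tested further.

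**Figure D4:**
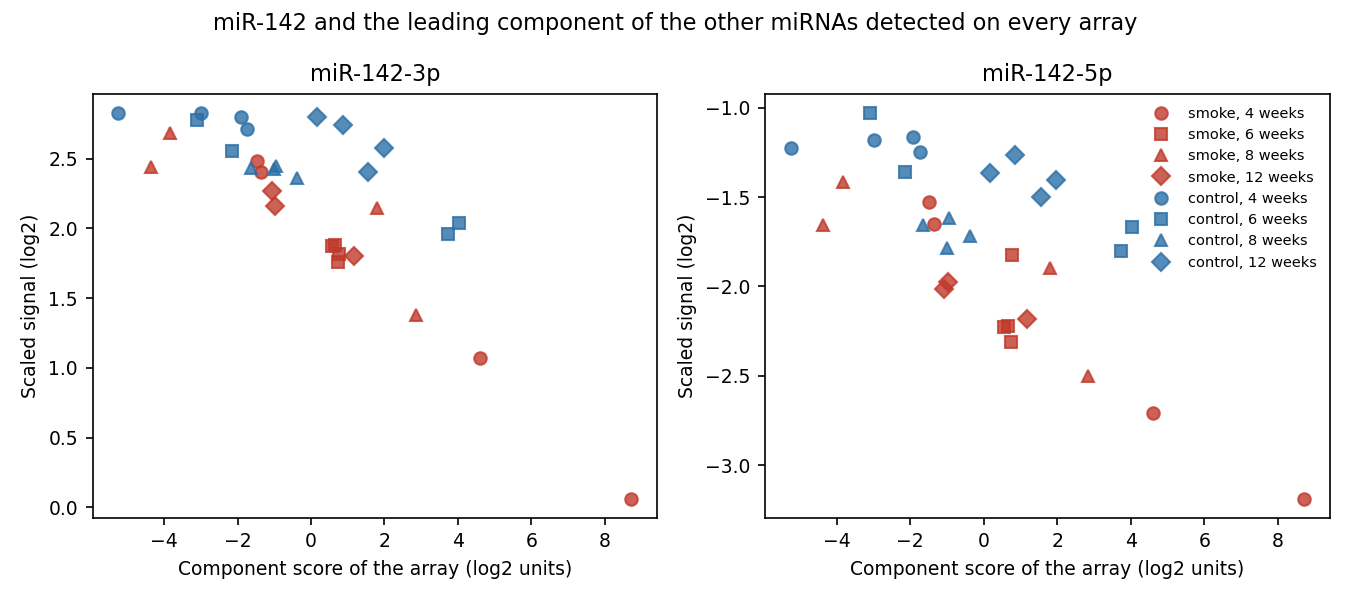
Scaled signal (log2) of miR-142-3p (left panel) and miR-142-5p (right panel) against the array's score on the leading component of 205 other miRNAs; colour gives smoke or control and shape the duration. Both arms are lower at higher scores (correlations -0.81 and -0.72), where the sign of the score was set by 3p. The lowest values are smoke arrays 2 and 3 of 4 weeks, and control arrays 3 and 4 of 6 weeks and those of 12 weeks lie above smoke arrays of like score.

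Base composition moved with the same arrays. For each array, the slope of all other miRNAs' deviations on their percentage of G and C was taken, in log2 per 10 percentage points. It was highest on smoke arrays 2 and 3 of 4 weeks, at 0.15 and 0.11, against a median of -0.02 over all arrays. On average, miRNAs rich in A and U were thus relatively dim on these arrays. The trend was weak: across 172 miRNAs, G and C content correlated with the 4 weeks smoke difference at 0.14. The slope correlated with 3p at -0.74 (Spearman -0.59, permutation p 1e-05 and 6e-04) and with 5p at -0.65 (Spearman -0.52, permutation p 1e-04 and 0.003), and at -0.54 and -0.42 without those arrays. As deviations from group means the correlation was -0.88 for 3p (Spearman -0.87, permutation p 1e-05 for both) and -0.90 for 5p (Spearman -0.88, permutation p 1e-05 for both). It was -0.86 for either arm without smoke arrays 2 and 4 of 4 weeks, and within slides lay between -0.91 and -0.96 for 3p and between -0.85 and -0.97 for 5p. With this trend removed from every array, the averaged falls were -0.62 log2 for both arms and the 4 weeks falls -1.18 for 3p and -0.95 for 5p, all still past the threshold.

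The miRNAs most like each arm were found among the 205 by the correlation of deviations from group means over the 31 arrays. For 3p they were miR-101b-3p (0.96), miR-101a-3p (0.95), miR-141-3p (0.95), miR-301a-3p (0.94) and miR-30e-5p (0.93). For 5p they were miR-101b-3p (0.96), miR-101a-3p (0.96), miR-30e-5p (0.94), miR-141-3p (0.94) and miR-144-3p (0.92). The lists thus share 4 of 5 names, and each arm's likeness to the other (0.96) was of the same size. The sequences of those 4 are shown from RefSeq (GRCm38.p6), seeds in capitals, because none of these seeds is that of a miR-142 arm.
miR-101a-3p: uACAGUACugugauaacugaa
miR-101b-3p: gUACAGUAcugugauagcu
miR-141-3p: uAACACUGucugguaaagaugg
miR-30e-5p: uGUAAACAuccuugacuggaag
miR-101a-3p and miR-101b-3p share a run of 15 bases, so a probe could read both and they are not separate examples. These miRNAs have 30% to 42.1% G and C, below the median of tested miRNAs. Split by G and C content, the median likeness to 3p was -0.23 in the 66 miRNAs lowest in G and C, -0.70 in the 66 of the middle range and -0.66 in the 40 highest. As deviations from group means, miR-141-3p and miR-144-3p correlated with the component score at -0.96 and -0.97. The miR-142 arms did so at -0.90 for 3p and -0.87 for 5p. How far likeness restates that shared component was not tested.

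Their smoke differences are set beside those of the miR-142 arms, which were -0.65 averaged over durations. On the same scale miR-101b-3p lay at -0.07 log2 (limma adjusted p 0.699), miR-101a-3p at -0.15 (0.379), miR-141-3p at -0.08 (0.811), miR-301a-3p at -0.21 (0.202) and miR-144-3p at -0.20 (0.594). Of the 6 only miR-30e-5p passed, at -0.40 (adjusted p 0.0114), where 12.1% of tested miRNAs were called lower. After 4 weeks the 6 lay between -1.31 and -0.53 log2. There miR-101a-3p, miR-301a-3p, miR-30e-5p and miR-144-3p passed, where 11.4% of tested miRNAs were called lower. The 6 were picked for following miR-142 on these same arrays, so their calls are not separate support. A test of the difference between each of them and miR-142 was not made.

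Among other miRNAs of leukocytes, rises but no falls passed. Of a list of 10 entries, 7 were on the array under these names and 6 were tested. Averaged over durations 3 of the 6 rose and none fell, with a median of 0.33 log2 against -0.0051 over all 272 miRNAs, of which 15.4% were called higher. miR-155-5p, which is induced in activated lymphocytes and macrophages, rose by 0.54 ± 0.11 log2 (limma adjusted p 0.000344). miR-146a-5p, an NF-kB target that restrains Toll-like receptor signalling, rose by 0.43 ± 0.08 (adjusted p 9.47e-05), and miR-342-3p, from an intron of Evl, by 0.32 ± 0.09 (adjusted p 0.00971). miR-223-3p, of neutrophils and other myeloid cells, was at 0.34 ± 0.14 (adjusted p 0.0724), miR-150-5p, of mature lymphocytes, at -0.30 ± 0.12 (adjusted p 0.0677) and miR-342-5p at 0.27 ± 0.12 (adjusted p 0.0789). miR-150-3p lay at the floor on all arrays.

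After 4 weeks 5 of the 6 passed as higher and none as lower, with a median of 0.75 log2 against 0.17 over all miRNAs, of which 26.8% were called higher. The 5 include both arms of miR-342, which correlated at 0.97 as deviations from group means and are not separate examples. miR-342-3p was at 0.86 ± 0.18 log2 (limma adjusted p 0.00162), miR-155-5p at 0.86 ± 0.21 (0.00539) and miR-223-3p at 0.76 ± 0.28 (0.0365). As deviations from group means, the correlation of the 6 with the component score lay between 0.66 and 0.98, and that with 3p between -0.87 and -0.48. The score is computed over miRNAs that include all 6. Without smoke arrays 2 and 3 of 4 weeks none of the 6 passed at 4 weeks (median 0.40), while averaged over durations the same 3 rose and 1 fell. With the component as a covariate 2 of 6 passed as higher at 4 weeks, and averaged over durations 4 rose and 1 fell. Under the 3 other scalings between arrays, 1 to 5 rose and 1 fell averaged over durations, and 0 to 4 rose at 4 weeks. With the scale set by all probes, the 1 that fell was miR-150-5p.

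**Figure D5:**
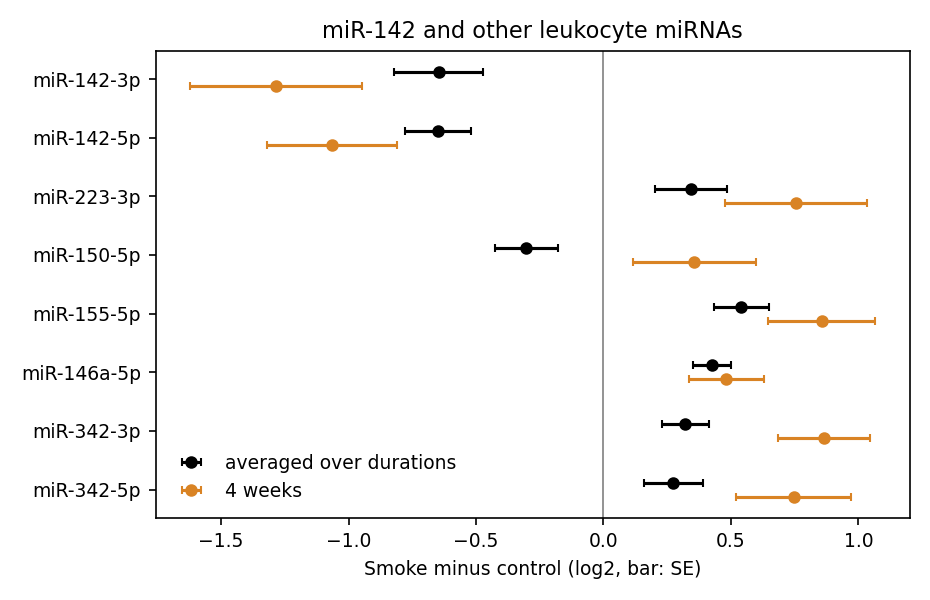
Smoke minus control (log2, bars are the SE of limma) for the miR-142 arms and the 6 tested leukocyte miRNAs, averaged over durations (black) and at 4 weeks (orange). The miR-142 arms lie at -0.65 averaged and below -1 at 4 weeks, whereas 5 of the other 6 lie above 0 in both comparisons.

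Markers of other cells were read beside these values, as summed scaled signal on the linear scale. Over all 272 tested miRNAs 15.4% were called higher and 12.1% lower averaged over durations, and 26.8% higher and 11.4% lower at 4 weeks. For lung epithelium 5 of 5 entries were tested, with sums of 6.23 to 8.44 on smoke arrays and 5.89 to 7.41 on control arrays, and averaged over durations 1 rose and none fell. After 4 weeks 3 of these 5 passed as higher and none as lower: miR-200c-3p (0.57 log2), miR-200b-3p (0.43) and miR-429-3p (0.37), with a median of 0.37 over the 5. The rest of the list lay below 0: miR-141-3p at -0.93 log2 (limma adjusted p 0.0505) and miR-200a-3p at -0.28 (0.0904). The epithelial entries thus did not move in 1 direction. Without smoke arrays 2 and 3 of 4 weeks miR-429-3p alone passed. For endothelium 2 of 2 were tested, with sums of 26.2 to 32.4 on smoke arrays and 27.2 to 37.0 on control arrays, and averaged over durations 1 fell, while none passed at 4 weeks. Of the erythroid list 2 of 5 were tested (61.0 to 84.0 with smoke, 52.7 to 92.0 in controls) and none passed averaged over durations. At 4 weeks miR-144-3p passed as lower (-1.31 log2), whereas miR-451 was at 0.11 (limma adjusted p 0.377). The sums were mostly miR-451, with a smoke mean of 6.11 log2 against -0.53 for miR-144-3p. Striated muscle miRNAs had 3 of 6 tested, with sums of 1.33 to 7.18 on smoke arrays and 0.84 to 6.79 on control arrays, and miR-208a-3p and miR-499-5p at the floor on all arrays. None passed averaged over durations and 2 fell at 4 weeks. Without the 3 arrays highest in muscle miRNA (smoke array 3 of 8 weeks, and 1 and 4 among the 4 weeks controls), the 4 weeks differences of miR-142 were -1.25 log2 for 3p (limma adjusted p 0.0768) and -1.06 for 5p (0.0518), and the averaged falls were -0.66 and -0.67. The liver miRNA miR-122-5p summed to between 0.0020 and 2.97 on smoke arrays and was at most 0.0076 on control arrays, and without smoke array 3 of 12 weeks, the high one, the averaged falls were -0.61 and -0.63. The part of these cells in the miR-142 result was not tested.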

How the data were processed

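The authors deposited the scanner output of 31 arrays. Its spot intensity values had background subtracted and a spatial trend removed by Feature Extraction (version 10.7.3.1), with no step between arrays, per the file headers. The authors also deposited a series table of log2 values (650 entries), whose normalization the sources used here do not describe. Column medians there were 2.71 to 2.85. Each column correlated at 0.962 to 0.975 with the same array's scaled scanner values, which gave the table's scale and direction.

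Groups and replicate numbers came from the sample titles. Control spots and outlier spots (297 to 655 per array) were left out and the spots of a probe averaged. A probe was detected where 50% of its spots were above background. Each array was divided by the 75th percentile of its 385 probes that were detected throughout, floored at log2 -6.74 and put on the log2 scale, and the brightest probe stood for each miRNA. Testing asked for detection on 75% of arrays in at least 1 group and left 272 miRNAs (269 of mouse, 222 with a RefSeq sequence), 207 of them detected on every array. Differences were fitted in R 4.3.3 with limma 3.58.1 (8 group means, 23 residual degrees of freedom). The fit was tried on data simulated with noise independent between miRNAs. Control of false calls under a component shared by miRNAs was thus not checked. A call is an adjusted p of 0.05 or less. Precision is limited by the number of arrays. The members, the lists and the naming rule (the arms, the listed markers and the 5 miRNAs most like each arm) were chosen with earlier results of these data known. The normexp alternative used the median spot signal, because the files hold no mean signal. The alternatives were other scalings, probe summaries, background correction, filters, floors, blocks, covariates and arrays left out.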

Additional observations from a re-analysis of the deposited data

Results flagged for a closer look

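Of the 21 groups of 4 values (both arms and the arm difference) 1 held a value far from the rest by Dixon's 95% criterion, which chance alone meets in about 1 of 20 groups. The arm difference of miR-142 on smoke array 2 of 6 weeks was 3.64 log2, against 4.07 for the nearest of the other 3 smoke arrays, a gap of 0.925 of the whole range. On that array 3p was at 1.81, within the range of its group, and 5p was the highest of its group at -1.82.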

How the results depend on the processing

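Both averaged falls kept their direction under all 52 alternatives, between -0.79 and -0.41 log2 for 3p and between -0.80 and -0.48 for 5p. The 5p fall passed in all of them, and the 3p fall missed the threshold only with no scaling between arrays (-0.79, limma adjusted p 0.0785), which leaves total signal in the spread. The 4 weeks falls kept their direction in all 53 alternatives but did not pass with no scaling (-1.36 for 3p, -1.14 for 5p), with the component score as a covariate (-0.37, -0.40), without smoke arrays 2 and 3 of 4 weeks (-0.35, -0.38), without the 3 arrays highest in muscle miRNA (-1.25, -1.06) or fitted on the 4 weeks arrays alone (-1.28, -1.06). Fewer arrays entered the last 3 fits, and without smoke arrays 2 and 3 the differences were also nearer 0. The cause was not tested. With normexp background correction the 4 weeks differences were -1.12 for 3p and -1.11 for 5p while the median of all miRNAs lay at -0.75, relative to which they lay at -0.37 and -0.36.

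Calls appeared at other durations. With the component score as a covariate, 3p and 5p passed at 6 weeks (-0.49, -0.68) and 12 weeks (-0.79, -0.84), and F tests passed for 5p between durations (adjusted p 0.0328) and among control durations for 3p (0.0237) and 5p (0.0112). With the G and C trend removed, 5p passed at 6 weeks (-0.70) and 12 weeks (-0.73). Without smoke arrays 2 and 3 of 4 weeks, 5p passed at 6 weeks (-0.68) and 12 weeks (-0.67). Fitted on the 12 weeks arrays alone, both arms passed there (-0.55, -0.67). The arm difference passed at 4 weeks with quantile scaling (-0.39, adjusted p 0.0439). It turned sign there, without passing, with the component score (0.032) and without smoke arrays 2 and 3 (0.037).

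The averaged arm difference, 0.0011 in the main setting, lay on the other side of 0 without passing in 8 settings that leave out no array: quantile scaling (-0.030), the mean of all probes (-0.032), the other probe of each arm (-0.066), the scanner's sum per miRNA (-0.027), normexp (-0.0019), the authors' deposited table (-0.098), outlier spots kept (-0.017) and the G and C trend removed (-0.0018).

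Leaving out 1 array at a time gave, for 3p and 5p, ranges of -0.43 to 0.0087 and -0.32 to 0.038 at 8 weeks, both above 0 without smoke array 1. For 5p the range was -0.79 to -0.54 at 6 weeks and -0.72 to -0.61 at 12 weeks, and it passed at both without smoke array 2 of 4 weeks (adjusted p 0.0369 and 0.047). For the arm difference it was -0.022 to 0.045 averaged and -0.31 to -0.046 at 4 weeks, where it passed without smoke array 1 (adjusted p 0.046). The other results kept their side of the threshold.

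The correlation of deviations between smoke and control samples of the same replicate number was over 0.1 in 7 of 15 pairs (-0.22 to 0.40). The main fit did not treat the samples as paired. At 4, 6 and 8 weeks these pairs also shared a slide, and every value over 0.1 was from there. The 12 weeks pairs did not share a slide and lay between -0.22 and 0.08. Replicate number and slide thus cannot be told apart at 4, 6 and 8 weeks. With the replicate block, the averaged falls were -0.64 log2 for both arms and no call changed. Over all miRNAs, 42 were called higher and 33 lower averaged over durations, against 8 and 21 without scaling, 10 and 33 for summed signals, 6 and 6 with normexp, 46 and 65 in the authors' deposited table and 61 and 84 with the component score. At 4 weeks the calls were 73 and 31, against 4 and 0 without scaling, 51 and 10 when all probes set the scale, 48 and 31 after quantile scaling, 22 and 24 with normexp, 8 and 11 with summed signals and 57 and 39 in the authors' deposited table.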
